A study of Caenorhabditis elegans with 6 samples.

Results

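Small RNAs bound to the Argonaute WAGO-4 were compared between the F3 descendants of Caenorhabditis elegans exposed to oma-1 dsRNA and animals kept on HT115 bacteria without RNAi. The comparison uses 2 of the 6 libraries of the series and rests on reads antisense to annotated genes, with the sense reads of the same genes beside them. Antisense reads of each gene are given per 1000000 antisense reads of their library (CPM), summed over transcripts, and sense reads likewise per 1000000 sense reads. The study asked how WAGO-4 takes part in RNAi inheritance. Its libraries without strand-separated counts or with RNAi against lin-15b are used only where stated. Both groups carry the genotype 3xFLAG::GFP::WAGO-4, and small RNAs were taken from precipitates with the anti-FLAG M2 antibody. The F3 animals are labelled as young adults at 20 C, with the dsRNA given to P0, their great-grandparents. The HT115 animals are labelled as young adults at 20 C on HT115, the Escherichia coli strain that serves for RNAi by feeding, with no dsRNA named. The P0 library, on oma-1 dsRNA, and the F1 library, from their progeny, have the same genotype, stage and temperature. The growth notes also differ: those of F3 mention larvae on plates without food and embryos given 50 mJ/cm2 of ultraviolet light, and those of HT115 mention embryos held at several temperatures. These notes and the labelled young adult stage do not go together, and their part in the differences below was not tested. Each group is 1 library from 1 tagged strain, with no input and no untagged control, so values describe the precipitate and not enrichment over it.

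In RNAi, dsRNA is cut into primary siRNAs that lead Argonautes to a target transcript, and RNA-dependent RNA polymerases then copy the transcript into secondary siRNAs antisense to it. WAGO-4 is a cytoplasmic Argonaute of the germline that binds such secondary siRNAs and is required for silencing to pass to progeny that never met the dsRNA. OMA-1 and its near twin OMA-2 are zinc finger proteins of maturing oocytes, and silencing of oma-1 is a common readout of inherited RNAi because it can be scored over generations.

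Gene-assigned reads numbered 7308405 antisense and 2766283 sense in F3, against 7392235 antisense and 2108128 sense on HT115. The antisense share was 72.5% in F3 and 77.8% on HT115. A single antisense read was worth 0.137 CPM in F3 and 0.135 CPM on HT115. A gene was counted as measured when it reached 25 CPM in the higher of the 2 libraries, which 5788 genes did for antisense and 5755 for sense reads. Since each group has 1 library, replicates cannot check any difference below, and p-values are left out. Ranges in brackets are 95% intervals (exact Poisson for levels, exact conditional binomial for folds) of counting error only. Per the labels, ligated RNAs were amplified with primers, and no molecular identifier is mentioned, so reads are not independent molecules and the true error may be larger.

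The oma-1 gene (WBGene00003864, chromosome IV) had 1443 antisense reads in F3 and 713 on HT115. This was 197 CPM (187 to 208) in F3, against 96.5 CPM (89.5 to 103.8) on HT115. Antisense oma-1 reads were thus 2.05-fold (1.87 to 2.24) higher in F3, a log2 ratio of 1.03. Of the 5788 measured genes, 15 had a higher ratio than the target of the original dsRNA. Sense oma-1 reads were level, with 169.9 CPM (155 to 186) in F3 and 171.2 CPM (154 to 190) on HT115, a fold of 0.992 (0.863 to 1.14). There were 3.07 antisense reads per sense read (2.76 to 3.41) in F3 and 1.98 (1.74 to 2.25) on HT115. As in any bulk sample, fewer cells of a type and less RNA per cell cannot be told apart in these values.

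**Figure D1:**
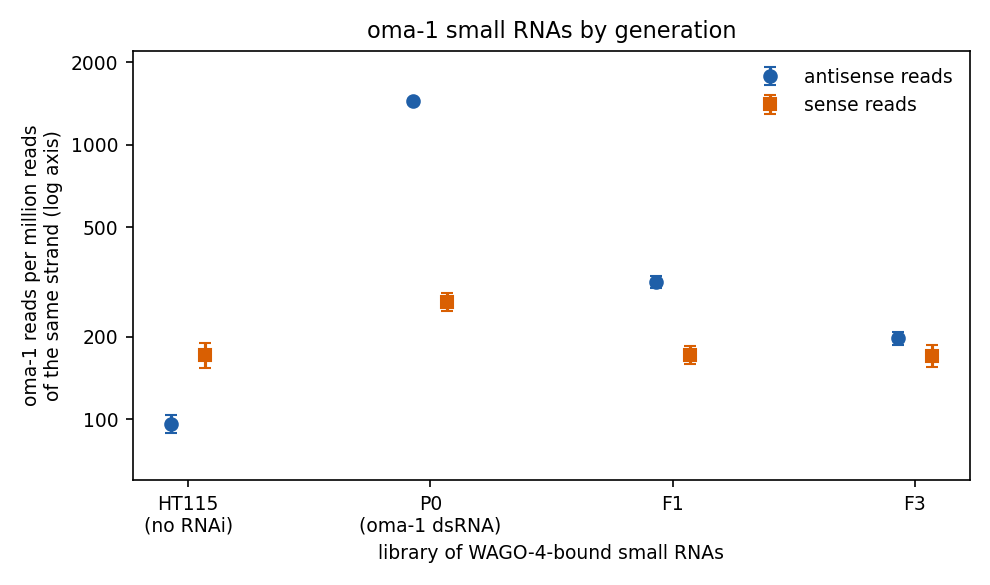
CPM of oma-1 on each strand (log axis) in the libraries from HT115, P0, F1 and F3, 1 library each; circles are antisense and squares sense reads, and bars are 95% Poisson intervals (smaller than the symbol for antisense reads in P0). Antisense oma-1 stood at 96.5, 1440, 317 and 197 CPM along this order, while sense oma-1 stayed between 169.9 and 268 CPM.

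Over the generations, antisense oma-1 reads stood at 96.5 CPM (HT115), 1440 CPM (P0, 1410 to 1470), 317 CPM (F1, 302 to 332) and 197 CPM (F3). These comparisons share the HT115 library. The level above HT115 was 1343 CPM (1312 to 1375) in P0, 220 CPM (204 to 237) in F1 and 101 CPM (88.5 to 114) in F3. The excess of F3 was thus 7.52% of that in P0, and the excess of F1 was 16.38% of it. Per antisense total again, the library after RNAi against lin-15b, another gene, had 105 CPM (97.4 to 113.2) of antisense oma-1 reads. This interval overlaps that of HT115 and lies below that of F3. Summed over both strands, where the level sense reads dilute the difference, the log2 ratio of oma-1 was 0.75 in place of 1.03.

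Genes related to oma-1 or next to it did not share its difference. The paralog oma-2 had 92.2 antisense CPM in F3 and 84.8 on HT115, a fold of 1.09 (0.974 to 1.21). The related zinc finger gene moe-3 had 5 antisense reads in F3 and 6 on HT115, and 34.3 CPM in P0. Its level in F3 was thus at the bottom of what this depth can show. Of the genes near oma-1 on chromosome IV, spr-2 (a homolog of the chromatin protein SET) had 116 CPM in F3 and 118 on HT115. C27B7.2 had 57.5 CPM in F3 and 64.5 on HT115. The helicase gene rad-54.L2 had 397 CPM in F3 and 363 on HT115, the highest fold of these 3 at 1.09 (1.04 to 1.15).

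Outside oma-1 the antisense profile of the 2 libraries was close. Among the 5788 measured genes 2758 were higher and 3030 lower in F3, with a median log2 ratio of -0.01 and a standard deviation over genes of 0.29. In 94.8% of them the levels were within 1.5-fold of each other. At least 2-fold higher in F3 were 19 genes (0.328%), and at least 2-fold lower were 34 (0.587%). At least 4-fold higher was 1 gene (0.0173%), and at least 4-fold lower were 2 (0.0346%). With TMM scaling in place of library totals the median moved to 0.10, and 43 genes were at least 2-fold higher and 28 lower. The balance between higher and lower genes near 2-fold therefore depends on the scaling, while the 3 genes 4-fold apart kept that distance with TMM scaling. List medians below are best read against the median of all genes. Of the 19 higher genes, 10 were under 25 CPM on HT115 and so were measured through F3 alone, and of the 34 lower ones 19 were under it in F3.

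**Figure D2:**
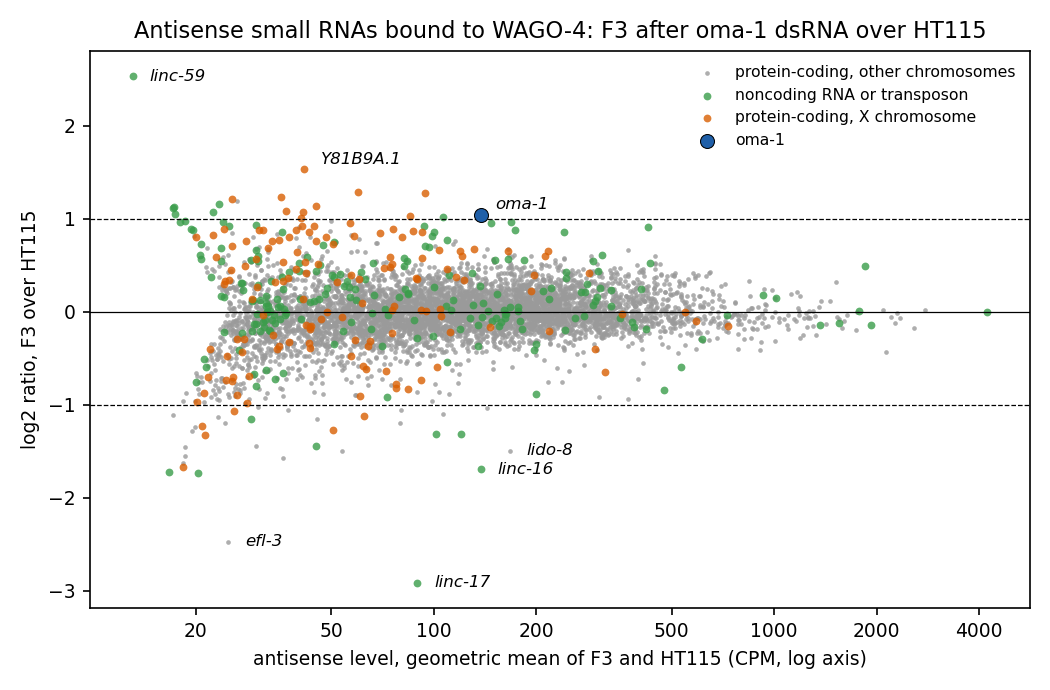
Antisense log2 ratio of F3 over HT115 for the 5788 measured genes against their level (geometric mean of the 2 libraries in CPM, log axis); dashed lines mark 2-fold. Most genes lie within 1.5-fold of each other, oma-1 is at 1.03, and the genes past 2-fold are mainly under 100 CPM, many of them X-linked (orange) or noncoding (green).

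The 10 genes with the most antisense reads in F3 were within 1.5-fold of HT115. Of the 7 protein-coding ones, cls-2 had the most antisense reads, and klp-18, a kinesin of the oocyte spindle, had 2424 CPM in F3 and 2730 on HT115, a fold of 0.888 (0.870 to 0.906). The telomere protein gene tebp-2 had 2293 CPM in F3 and 2312 on HT115, and set-9, a chromatin protein gene, had 2166 in F3 and 2362 on HT115. F31C3.14, F31C3.15 and F31C3.16, listed as ribosomal RNA, made up the other 3. F31C3.15 had 2195 CPM in F3 and 1568 on HT115, a fold of 1.40 (1.37 to 1.43), and 5006 CPM in F1. It lies opposite the ribosomal RNA gene rrn-1.1, so its antisense reads are also sense reads of that gene. As a whole rrn-1.1 had 28183 sense CPM in F3 (77962 reads) and 33065 on HT115 (69705 reads). Its CPM was thus lower in F3 and its read count higher. Antisense and sense CPM relate to different totals, so the direction depends on the total used.

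The gene farthest above HT115 was linc-59 (WBGene00219594, chromosome V), a long intergenic noncoding RNA. It had 231 antisense reads in F3 and 40 on HT115, or 31.6 CPM (27.7 to 35.96) in F3 and 5.41 CPM (3.87 to 7.37) on HT115, a fold of 5.84 (4.16 to 8.39). Over the generations it stood at 5.41 (HT115), 6.63 (P0), 15.4 (F1) and 31.6 CPM (F3). No other measured gene was 4-fold higher.

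Of the 19 genes at least 2-fold higher, 12 were X-linked, against 2.44% of the 5735 measured genes less than 2-fold apart. They comprise 10 protein-coding genes and 2 noncoding RNAs. Y81B9A.1, a gene with few sense reads (4 in F3 and 5 on HT115), had 70.9 antisense CPM in F3 and 24.5 on HT115, a fold of 2.89 (2.44 to 3.45). The intervals of its levels, 64.9 to 77.3 in F3 and 21.05 to 28.3 on HT115, lie well apart. lin-15A, which encodes a nuclear protein of the synthetic multivulva class A, had 54.6 CPM in F3 and 23.3 on HT115, a fold of 2.35 (1.96 to 2.82). Its neighbour in the same operon, lin-15B, had 112.3 CPM in F3 and 75.6 on HT115, a fold of 1.49 (1.33 to 1.66), short of 2-fold. Both genes of the locus were thus higher in F3, while their sense reads were close to level, at 12.7 CPM in F3 and 12.33 on HT115 for lin-15A and 67.6 CPM in F3 and 71.2 on HT115 for lin-15B. Antisense lin-15A was also at 44.9 CPM in P0, 45.5 in F1 and 46.3 in the lin-15b library, so HT115 was the low library. All 19 higher genes were above HT115 in P0 and in F1 too. Of the 5735 genes less than 2-fold apart, 3131 were above it in P0 and 2405 in F1. These comparisons share the HT115 library.

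A pair of X-linked genes of mitochondrial metabolism was in the higher set. ucr-2.1, a core subunit of respiratory complex III, had 38.996 antisense CPM in F3 and 16.8 on HT115, a fold of 2.32 (1.88 to 2.89). suca-1, a subunit of succinyl-CoA ligase in the citric acid cycle, had 67.0 CPM in F3 and 30.4 on HT115, a fold of 2.203 (1.88 to 2.59). The other 45 measured genes of the list of mitochondrial respiration were less than 2-fold apart, and the median of the list was -0.05, or 0.06 with TMM scaling. Both genes also had more sense reads in F3, 1.31-fold for ucr-2.1 and 1.33-fold for suca-1, where the list as a whole had a sense median of 0.41. Against the lin-15b library, with 143.8 antisense CPM of suca-1 and 43.9 of ucr-2.1, F3 was the lower one, by a log2 ratio of -1.08 for suca-1 and -0.15 for ucr-2.1. adm-4, a metalloprotease of the ADAM family, had 57.7 antisense CPM in F3 and 28.7 on HT115, just past 2-fold (2.01, 1.70 to 2.39). F16F9.4 had 93.5 CPM in F3 and 38.3 on HT115, and F28H6.4 had 147 in F3 and 60.5 on HT115. R07E4.5 had 59.7 CPM in F3 and 28.4 on HT115. The other X-linked protein-coding genes past 2-fold were asna-2 and R04E5.8, with folds of 2.13 and 2.03.

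Within the oma-1 lineage these X-linked genes did not share a single order, and every comparison with HT115 uses the same HT115 library. F28H6.4 stood at 60.5 (HT115), 97.8 (P0), 147.2 (F1) and 146.7 CPM (F3). Its levels in F1 and F3 were close together. R07E4.5 stood at 28.4 (HT115), 58.7 (P0), 62.9 (F1) and 59.7 CPM (F3), with HT115 below the other 3. Y81B9A.1 stood at 24.5 (HT115), 36.6 (P0), 46.4 (F1) and 70.9 CPM (F3), and the lin-15b RNAi library had more than any of these, 91.6 CPM.

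Short noncoding RNAs that lie opposite structural RNA genes made up another group of the higher set. In the Ensembl WBcel235 annotation, the source of chromosomes and overlaps here, F27D9.9, F15A8.15 and K02D7.8 each cover a tRNA gene on the other strand, and Y39G10AR.26 covers a snoRNA gene. A read antisense to such an RNA is a sense read of the gene opposite where the 2 overlap. F27D9.9 had 25.5 antisense CPM in F3 and 11.63 on HT115, a fold of 2.19 (1.69 to 2.86). The tRNA gene opposite it, F27D9.t1, had 52.1 sense CPM in F3 (144 reads) and 38.9 on HT115 (82 reads). Y39G10AR.26 had 151 antisense CPM in F3 and 74.5 on HT115, a fold of 2.03 (1.83 to 2.25). The snoRNA gene opposite had 104.8 sense CPM in F3 (290 reads) and 69.3 on HT115 (146 reads). Antisense and sense CPM relate to different totals, so the sizes of the differences on the 2 strands cannot be set side by side. Of the 5735 genes less than 2-fold apart, 1.34% lie opposite such a structural RNA, against 4 of these 19. T04C12.30, a noncoding RNA within the actin gene act-1 on the other strand, had 35.0 antisense CPM in F3 and 15.7 on HT115. act-1 had 1265 sense CPM in F3 (3499 reads) and 782 on HT115 (1648 reads). The gene grl-26, which also covers K02D7.8 on the other strand, had 31 sense reads in F3 and 70 on HT115, a difference the other way, while the tRNA gene there had 59 in F3 and 40 on HT115. Because annotated genes overlap here, these 5 values cannot be told apart from changes of the opposite transcripts. They were also higher in F1 than in F3, at 56.7 CPM in F1 and 25.5 in F3 for F27D9.9, and 232 in F1 and 151 in F3 for Y39G10AR.26.

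**Figure D3:**
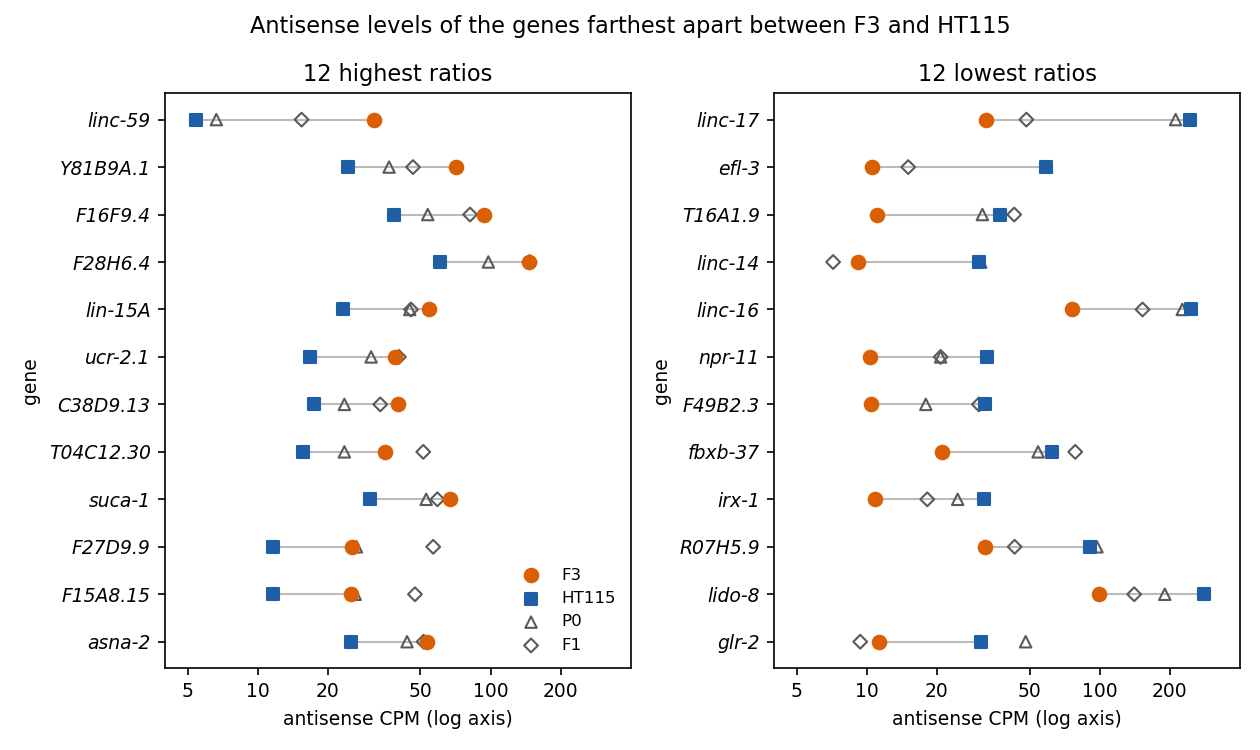
Antisense CPM (log axis) of the 12 genes with the highest and the 12 with the lowest ratio of F3 over HT115; filled circles are F3, filled squares HT115, open triangles P0 and open diamonds F1, 1 library each. Among the lowest, linc-17 stood at 32.6 CPM in F3 and 246 on HT115, with F1 at 48.4 close to F3 and P0 at 212 close to HT115.

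Of the 34 genes at least 2-fold lower in F3 than on HT115, 33 are in the table of the lin-15b library, and 22 of these were higher in F3 than there. Of the 19 genes at least 2-fold higher, 15 were also higher than in the lin-15b library, and of the genes less than 2-fold apart 3636 of 5623 were. The lower set included 4 long intergenic noncoding RNAs. linc-17 (WBGene00219755, chromosome II) had the lowest ratio of all, with 238 antisense reads in F3 and 1816 on HT115. Its level was 32.6 CPM (28.6 to 36.98) in F3 and 246 CPM (234 to 257) on HT115, 7.54-fold lower (6.59 to 8.67). Over the generations linc-17 stood at 246 (HT115), 212 (P0), 48.4 (F1) and 32.6 CPM (F3). The lin-15b RNAi library had 13.02 CPM, less than F3, so HT115 and P0 are the libraries with high values. linc-16 had 76.4 CPM in F3 and 247 on HT115, linc-24 had 76.4 in F3 and 189.8 on HT115, and linc-14 had 9.17 in F3 and 30.4 on HT115. Part of linc-16 lies opposite the F-box gene fbxc-19, which had 3.98 sense CPM in F3 (11 reads) and 9.01 on HT115 (19 reads). Against the lin-15b library all 4 were higher in F3, by 1.34 (linc-17), 3.08 (linc-16), 1.29 (linc-24) and 2.096 (linc-14) on the log2 scale. Of all measured genes 0.328% were at least 2-fold higher and 0.587% at least 2-fold lower. Of the 17 measured long intergenic noncoding RNAs 1 was at least 2-fold higher and 4 were at least 2-fold lower. Their median was -0.12, with an interquartile range from -0.89 to 0.31, and it was -0.01 with TMM scaling. linc-29 (1777 CPM in F3 and 1772 on HT115) and linc-22 (1481 in F3 and 1614 on HT115) were nearly level.

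The other gene 4-fold lower was efl-3 (WBGene00009899, chromosome II), a transcription factor of the E2F family. It had 10.5 antisense CPM (8.31 to 13.2) in F3 and 58.8 CPM (53.4 to 64.6) on HT115, 5.59-fold lower (4.37 to 7.21). Its order over the libraries was 58.8 (HT115), 59.2 (P0), 15.0 (F1) and 10.5 CPM (F3). The sense reads of efl-3 were lower too, but less so, with 132 CPM in F3 and 193 on HT115. With the lin-15b RNAi library, at 11.2 CPM, as the comparison, efl-3 was level with F3.

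Further genes at least 2-fold lower are given with their known roles, which do not define a group. npr-11, a neuropeptide receptor gene on chromosome X, had 10.3 CPM in F3 and 32.9 on HT115, 3.20-fold lower (2.46 to 4.21). glr-2, a glutamate receptor subunit, had 11.2 CPM in F3 and 30.8 on HT115, 2.75-fold lower (2.13 to 3.58). unc-10, which encodes the active zone protein RIM, had 42.1 CPM in F3 and 92.1 on HT115, 2.19-fold lower (1.91 to 2.51). irx-1, an Iroquois homeobox gene, had 10.8 CPM in F3 and 31.9 on HT115. vang-1, a planar cell polarity gene of the Van Gogh family, had 32.6 CPM in F3 and 78.9 on HT115. It stood at 78.9 (HT115), 17.7 (P0), 80.7 (F1) and 32.6 CPM (F3), with no order over the generations. B0410.3, which overlaps vang-1 on the other strand, had 44.1 sense CPM in F3 (122 reads) and 11.4 on HT115 (24 reads), a difference the other way. gsa-1, the alpha subunit of the stimulatory G protein, had 55.7 CPM in F3 and 116 on HT115, and atf-4, a leucine zipper transcription factor, had 13.5 in F3 and 31.9 on HT115. The list of neuropeptide and transmitter receptor genes had only 5 measured members, 2 of them at least 2-fold lower, and a median of -0.55. Of all measured genes 0.587% were at least 2-fold lower. The list of neuron genes had 3 measured members, 0 of them 2-fold apart, and a median of -0.05, and that of homeobox genes had 10, 1 of them at least 2-fold lower, and a median of 0.02. Against the lin-15b library F3 was the higher one for antisense npr-11 (1.91 on the log2 scale), vang-1 (2.80) and atf-4 (1.01). All measured genes had a median of 0.30 there. Against the untreated library, over both strands summed, F3 was higher for npr-11 (0.38), vang-1 (1.595) and atf-4 (0.44). All measured genes had a median of 0.29 in that comparison.

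Targets of the Argonaute ERGO-1, which are duplicated or poorly conserved genes silenced by endogenous siRNAs, were lower as a list. Of 10 measured members, 3 were at least 2-fold lower and 0 higher, 8 were below 0, and the median was -0.84. Of all 5788 measured genes, 0.587% were at least 2-fold lower and 3030 were below 0. fbxb-37, which is also an F-box gene, had 20.9 CPM in F3 and 62.4 on HT115, 2.98-fold lower (2.48 to 3.60). C40A11.10, annotated as mir-8199, had 12.5 CPM in F3 and 30.4 on HT115. E01G4.5 had 100.4 CPM in F3 and 206 on HT115, 2.05-fold lower (1.87 to 2.24). C44B11.6 had 268 CPM in F3 and 514 on HT115, short of 2-fold, and C36A4.11 was higher, with 214 CPM in F3 and 155 on HT115. Against the lin-15b library the median of the list was 0.65, that is, F3 was the higher library. All measured genes had a median of 0.30 in that comparison. Within the oma-1 lineage E01G4.5 stood at 206 (HT115), 162 (P0), 206 (F1) and 100.4 CPM (F3), and fbxb-37 at 62.4, 54.4, 78.5 and 20.9 CPM in the same order. These 2 genes were thus low in F3 and not in F1. The list did not share that order: its summed level stood at 1875 (HT115), 1635 (P0), 1250 (F1) and 1193 CPM (F3). As a sum it was thus already low in F1.

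The remaining lower genes had mixed roles. T16A1.9, listed as a transposon, had 11.08 CPM in F3 and 37.2 on HT115, 3.36-fold lower (2.61 to 4.36). The 114 measured transposons had a median of 0.09, with 72 above 0, and T16A1.9 was the only one of them 2-fold apart. lido-8 had 99.7 CPM in F3 and 281 on HT115, with 191 in P0 and 141 in F1 in between. R07H5.9 overlaps the adenosine kinase gene adk-1 on the other strand, which had 567 sense reads in F3 and 321 on HT115, a difference the other way. The noncoding RNA Y53F4B.45, which lies within trip-4 on the other strand, had 64.2 CPM in F3 and 160 on HT115. lea-1, which encodes a protein of the desiccation-linked LEA family, had 72.9 antisense CPM in F3 and 156 on HT115, while its sense reads were at 423 CPM in F3 and 479 on HT115. mai-1, an inhibitor of the mitochondrial ATP synthase, had 13.4 antisense CPM in F3 and 33.7 on HT115, with 58.6 sense CPM in F3 and 25.6 on HT115. Its strands therefore differed in opposite directions.

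The other protein-coding genes described here were lower in F3 one by one. exc-9, which keeps the shape of the excretory canal, had 52.4 CPM in F3 and 120 on HT115, 2.29-fold lower (2.03 to 2.59). plr-1, a ubiquitin ligase that acts on Wnt receptors, had 30.4 CPM in F3 and 67.9 on HT115, and stood at 60.02 in P0 and 65.1 in F1. F3 was thus the low library of the lineage. arl-13, a small GTPase of cilia, had 21.3 CPM in F3 and 43.4 on HT115, and stood at 55.9 in P0 and 24.4 in F1. The F-box gene fbxc-39 (16.01 CPM in F3 and 36.8 on HT115) and bath-31 (15.7 in F3 and 34.5 on HT115) belong to families with close copies, whose reads may be divided among them. Against the lin-15b library F3 was the higher one for antisense exc-9 (0.41), fbxc-39 (2.03) and bath-31 (0.65) and level for plr-1 (0.028). All measured genes had a median of 0.30 there. Against the untreated library, over both strands summed, the values were 0.088 (exc-9), 1.104 (fbxc-39) and 0.22 (bath-31). With a median of 0.29 for all measured genes, exc-9 and bath-31 lay below that median.

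X-linked protein-coding genes were set beside those of the autosomes. Few X-linked genes were measured at all, 141 of 2755 (5.12%), against 5391 of 17461 autosomal ones (30.9%). The share of antisense reads from X-linked protein-coding genes was 1.55% in both F3 and HT115, so the chromosome as a whole took an equal part. Gene by gene the X-linked ratios were spread more widely: their median was 0.31 and their interquartile range 1.00, against -0.01 and 0.28 for autosomal genes. Of the 141 measured genes 10 were at least 2-fold higher and 6 at least 2-fold lower, against 2 and 20 of the 5391 autosomal genes. The difference in spread was seen at like levels up to 250 CPM and not above. Among genes that averaged 50 to 100 CPM, the interquartile range was 1.14 for 42 X-linked and 0.28 for 1387 autosomal genes, and the medians were 0.20 and -0.02. From 100 to 250 CPM it was 0.66 for 19 X-linked and 0.24 for 2083 autosomal genes. Among genes over 250 CPM it was 0.27 for 7 X-linked and 0.26 for 968 autosomal genes, with 0 of these X-linked genes 2-fold apart and a median of -0.10. The X-linked median was positive with every scaling tried, from 0.24 to 0.44 over all types of genes, but it was -0.64 when genes without a minimum level entered. Against the lin-15b library it was 0.26, below the median of 0.30 that all genes had in that comparison.

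**Figure D4:**
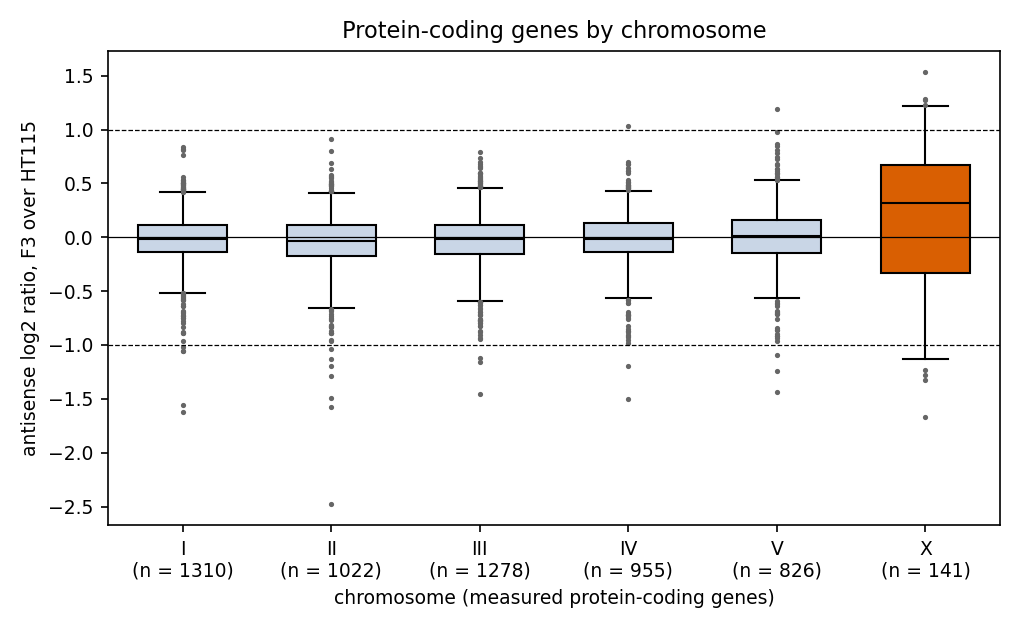
Antisense log2 ratio of F3 over HT115 for measured protein-coding genes by chromosome; boxes span the quartiles with the median as a line, whiskers hold the central 95% of genes, points are genes beyond them, and dashed lines mark 2-fold. Chromosome X has the highest median, 0.31, and the widest box, against medians near 0 on the autosomes.

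Genes of the silencing machinery itself showed small differences. For inheritance and nuclear RNAi factors, 0 of 19 measured members were 2-fold apart and the median was -0.06, which became 0.05 with TMM scaling. wago-4, which encodes the precipitated protein, had 2291 antisense CPM in F3 and 2400.5 on HT115, and 3092 sense CPM in F3 and 3062 on HT115. hrde-1, the nuclear Argonaute of inherited silencing, had 913 antisense CPM in F3 and 932 on HT115, and znfx-1, a helicase needed for inheritance, had 883 in F3 and 922 on HT115. The histone methyltransferase set-25 had the lowest ratio of this list (296 CPM in F3 and 332 on HT115) and the heterochromatin protein gene hpl-2 the highest (299 in F3 and 264 on HT115).

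Among genes for dsRNA uptake and primary RNAi, 0 of 16 were 2-fold apart and the median was 0.01. sid-1, the dsRNA channel, had 1696 CPM in F3 and 1358 on HT115, a fold of 1.249 (1.22 to 1.28). rde-11, which acts in amplification of exogenous RNAi, was 1.26-fold higher (542 CPM in F3 and 429 on HT115), and dcr-1, the Dicer gene, was 1.17-fold lower (221 in F3 and 259 on HT115). RNA-dependent RNA polymerases and mutators, which make secondary siRNAs, had a median of -0.02 over 14 genes, or 0.09 with TMM scaling. ego-1, the germline polymerase, had 552 CPM in F3 and 553 on HT115, and rrf-2 had 41.05 in F3 and 30.98 on HT115. Of 12 measured Argonaute genes 11 were below 0, with a median of -0.08 that became 0.03 with TMM scaling. csr-1 had 1218 CPM in F3 and 1450 on HT115, 1.19-fold lower (1.16 to 1.22), and sago-2 was the lowest, with 114 in F3 and 149 on HT115. P granule genes had a median of -0.07, 0.04 with TMM scaling. meg-4, an X-linked gene of this list, had 36.4 CPM in F3 and 21.5 on HT115, a fold of 1.69 (1.39 to 2.07), the highest of the 16.

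Among germline genes the oocyte and early embryo regulators had 36 of 37 members measured and a median of -0.06 (0.05 with TMM scaling), and oma-1 was the only one 2-fold apart. The eggshell gene cbd-1 had 683 CPM in F3 and 686 on HT115, and etr-1, an RNA-binding protein, was the lowest with 69.9 in F3 and 94.2 on HT115. Meiosis and synapsis genes had a median of -0.05 over 34 members, or 0.06 with TMM scaling. him-8, which pairs the X chromosomes, was the highest, with 194 CPM in F3 and 146 on HT115, and the axis gene htp-1 had 1181 in F3 and 1327 on HT115. Kinetochore and spindle genes were lower as a list, with 31 of 39 below 0 and a median of -0.17, or -0.10 with median-of-ratios and -0.06 with TMM scaling. The median turned to 0.36 against the lin-15b library, where all measured genes had a median of 0.30. Over both strands summed, the median of the list was 0.17 against the untreated library, where all measured genes had 0.29. The summed antisense level of the list was 20051 CPM in F3 and 22594 on HT115, a fold of 0.887. The CLASP gene cls-2 had 2785 CPM in F3 and 2755 on HT115, and csc-1, of the chromosomal passenger complex, was the lowest with 85.1 in F3 and 118 on HT115. DNA damage genes had a median of 0.03 over 29 members and 0 of them 2-fold apart. The excision repair gene csb-1, on chromosome X, was the highest with 41.5 CPM in F3 and 22.6 on HT115, a fold of 1.84 (1.51 to 2.23). Heterochromatin and synMuv genes had a median of 0.02 over 32 members.

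Medians of ribosomal protein genes and of histones had opposite signs on the 2 strands. Of 68 measured ribosomal protein genes 62 were below 0 for antisense reads, with a median of -0.25, while all 75 measured for sense reads were above 0, with a median of 0.41. With TMM scaling the medians were -0.14 for antisense and 0.47 for sense reads. The antisense median turned to 0.77 against the lin-15b library, where all measured genes had a median of 0.30. The sense median of the list was 0.0050 against that library. Against the untreated library only both strands summed can be compared. There the median of the list was 0.93, and all measured genes had a median of 0.29. Summed antisense levels were 11222 CPM in F3 and 12497 on HT115, and summed sense levels 40678 CPM in F3 and 30992 on HT115. rps-3A had the lowest antisense ratio, with 94.0 CPM in F3 and 149 on HT115, and its sense reads were at 1023 CPM in F3 and 875 on HT115. rpl-34 went the other way, with 1061 antisense CPM in F3 and 956 on HT115. Over histone genes, 13 of 17 were above 0 for antisense reads with a median of 0.26, and 60 of 68 were below 0 for sense reads with a median of -0.45. Their summed antisense level was even, at 2371 CPM in F3 and 2370 on HT115, and the antisense median was -0.39 against the lin-15b library. Histone copies are near-identical, so reads may be split among them. F-box and BATH genes, which also include close copies, had an antisense median of 0.15 over 74 members and a sense median of -0.24. For antisense reads 3 of them were at least 2-fold lower and 0 higher, against 0.587% and 0.328% of all measured genes.

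**Figure D5:**
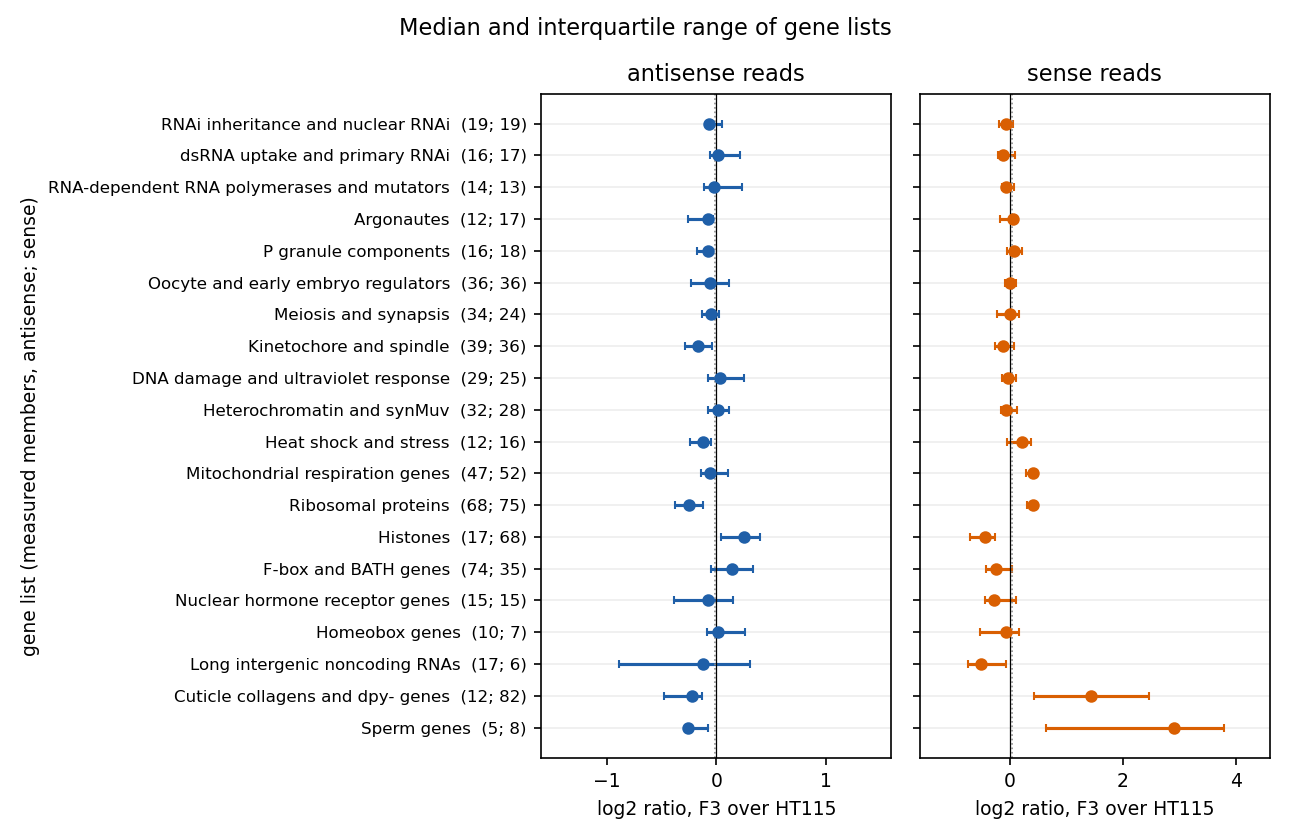
Median (points) and interquartile range (bars) of the log2 ratio of F3 over HT115 for gene lists, antisense reads on the left and sense reads on the right, with the numbers of measured members in brackets; dotted lines mark the medians of all measured genes. Antisense medians of the lists drawn lie between -0.26 and 0.26 (not drawn are ERGO-1 targets at -0.84, neuropeptide and transmitter receptors at -0.55, X-linked genes at 0.32, and the marker lists of other tissues and microRNAs, with at most 3 measured genes each), while the sense medians of cuticle genes (1.43) and sperm genes (2.90) lie far above 0. Some cuticle and sperm genes were measured for sense reads through F3 alone, which raises these medians.

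Sense reads differed more between the libraries than antisense reads. Of 5755 measured genes, 173 (3.01%) were at least 2-fold higher in F3 and 129 (2.24%) at least 2-fold lower; 59 (1.03%) were 4-fold higher and 16 (0.278%) 4-fold lower. The standard deviation of the log2 ratio over genes was 0.56, against 0.29 for antisense reads. Ribosomal RNA took 18.9% of sense reads in F3 and 22.99% on HT115. Levels of sense reads relate to the sense total.

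Genes of sperm had more sense reads in F3. Their summed sense level, over all 61 genes of the list, was 823 CPM in F3 and 217 on HT115, 3.80-fold higher (3.43 to 4.21). Of the 8 measured genes 5 were at least 2-fold higher, against 3.01% of all genes measured for sense reads. msp-40, a major sperm protein, had 71 sense reads in F3 and 1 on HT115, a ratio of 54.1 with a counting interval from 9.40 to 2167. msd-2, which encodes a sperm protein related to the major sperm proteins, had 70 sense reads in F3 and 1 on HT115. Since msp-40 and msd-2 reached 25 CPM through F3 alone, the count of 5 of 8 and the median of 2.90 partly follow from that minimum. The msp- genes together had 493 sense CPM in F3 and 49.8 on HT115, and their copies are near-identical. Antisense reads of the 5 measured sperm genes were lower, with a median of -0.26. The ferlin gene fer-1 had 18.9 antisense CPM in F3 and 25.7 on HT115.

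Many collagens of the cuticle had more sense reads in F3. Of 82 measured col-, dpy-, rol-, sqt- and bli- genes, 52 were at least 2-fold higher in F3 and 4 lower, with a median of 1.43. Of all genes measured for sense reads, 3.01% were at least 2-fold higher and 2.24% lower. Some genes of the list reached 25 CPM through F3 alone, so the count of 52 and the median partly follow from that minimum. A few dpy- genes, such as dpy-26 and dpy-11, do not encode collagens. With the col- prefix alone, 46 of 62 were at least 2-fold higher. col-81 had 555 sense CPM in F3 and 28.5 on HT115, 19.5-fold higher (15.1 to 25.7), with 2 antisense reads in F3 and 4 on HT115. dpy-5, a cuticle collagen of body shape, had 67.6 sense CPM in F3 and 3.32 on HT115, and so was measured through F3 alone. dpy-17 and dpy-14 went the other way: dpy-17 had 17.7 sense CPM in F3 and 115 on HT115, and dpy-14 had 28.9 in F3 and 187 on HT115. For antisense reads 10 of 12 measured genes of the list were below 0. col-60 had 15.1 antisense CPM in F3 and 29.5 on HT115, with 20.2 sense CPM in F3 and 3.79 on HT115. The summed sense level of the list stood at 11744 (HT115), 9377 (P0), 15798 (F1) and 20611 CPM (F3). In the lin-15b library it was 19344 CPM, close to F3, and the sense median of the list against that library was 0.39.

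The other sense reads far apart belonged to genes of varied roles. E01G4.6 had 55.3 sense CPM in F3 and 2.37 on HT115, and Y47D7A.15 had 72.3 in F3 and 3.79 on HT115. hil-7, a linker histone gene, had 1.45 sense CPM in F3 and 26.6 on HT115. mab-21, a gene of male tail patterning, had 2.17 in F3 and 28.0 on HT115, and stood at 2.28 in P0 and 1.61 in F1, so HT115 was the high library. hbl-1, a heterochronic zinc finger gene related to hunchback, had 9.40 in F3 and 65.9 on HT115, with 68.3 in P0 and 66.3 in F1. K05B2.2 had 10.5 in F3 and 56.9 on HT115. None of these 6 genes reached 3 antisense CPM in either library.

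Markers of other tissues were read in sense reads, since few of these genes had antisense reads. Of all 5755 genes measured for sense reads, 3169 were higher in F3. Muscle genes were higher in F3 for 22 of 26 measured members, with a summed level of 10922 CPM in F3 and 6753 on HT115, 1.62-fold (1.59 to 1.65). The lin-15b library had 12660 CPM of them, more than F3. Their median was 0.65 against HT115 and 0.23 against the lin-15b library. Neuron genes had a summed level of 476 CPM in F3 and 524 on HT115. Intestine genes were above 0 for 16 of 21 members with a median of 0.42, but their sum was lower, 45909 CPM in F3 and 54659 on HT115. The sum is set by the 6 vitellogenin genes, the yolk proteins that adult hermaphrodites make, at 41887 CPM in F3 and 52087 on HT115. Vitellogenin reads were thus abundant in both libraries. For antisense reads 1 of 31 intestine, 3 of 31 muscle and 3 of 31 neuron genes were measured. Their part in the differences of the sense reads was not tested.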

How the data were processed

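Small RNAs of 17 to 30 nt from anti-FLAG precipitates were sequenced, and per the submitters' processing notes Bowtie2 was used; no source used here names its version, the genome build or how reads were counted. The authors deposited whole-number read counts per transcript, with sense and antisense columns. They were summed per gene, and 3 lines that name no gene (0.000258% of reads in F3 and 0.000189% on HT115) were left out. Of 45510 genes, 44852 were in the Ensembl release 115 annotation. Symbols came from RefSeq for 44187 genes, from Ensembl for 26 and from the deposited table for 1297.

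Levels are counts per 1000000 gene-assigned reads of the strand (CPM). Log2 ratios carry a pseudocount of 0.5 reads. A gene was measured at 25 CPM in the higher library and called at 2-fold or 4-fold apart. Intervals (95%) cover counting error only. As a check of strand, antisense reads were 0.202% of microRNA reads in F3 and 0.417% on HT115. The ratios and intervals were tested on simulated Poisson counts. These hold no amplification or library variation, so they check the computation and not the size of the true error. Python 3.11.15, numpy 2.4.6, scipy 1.17.1, pandas 2.3.3, statsmodels 0.14.6 and matplotlib 3.10.9 were used.

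The members and the 27 gene lists (575 entries, 10 of them unmatched) were chosen with earlier results of these data known. Named genes are oma-1, its relatives and neighbours, silencing genes, lin-15A and lin-15B, the 12 highest and 12 lowest antisense ratios, for each list the most abundant member and those with the highest and lowest ratio, genes at least 4-fold apart, the 10 most abundant genes and the 6 highest and 6 lowest sense ratios; other genes past 2-fold were named after their values were seen. Alternatives changed the scaling, pseudocount, minimum, strand, gene value, depth, gene types and comparison library.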

Additional observations from a re-analysis of the deposited data

How the results depend on the processing

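Each group is 1 library, so leaving out a replicate and any test over samples do not apply. No paired analysis was possible because each group has 1 library. The log2 ratio of oma-1 was 1.03, and it was 0.75 over both strands and 0.84 against the first untreated library (1 column, read as both strands). Against F1 it was -0.68 and against P0 -2.87, since the level was higher in those libraries. The comparisons with F1 and P0, antisense reads over the total of both strands, and all alternatives for sense reads were chosen after seeing the data. The 19 genes at least 2-fold higher became 31 with median-of-ratios and 43 with TMM scaling, 8 over the total of both strands, 100 for both strands summed, 32 with the most-read transcript of each gene, 12 among protein-coding genes, 2 against F1 and 3 against P0. The 34 genes at least 2-fold lower became 62 against F1. With a minimum of 100 CPM, 4 genes were 2-fold higher, 9 were 2-fold lower, 0 were 4-fold higher and 1 was 4-fold lower. With no minimum, where single reads make a fold, the counts were 2530, 6253, 610 and 2024 in the same order. Against the lin-15b RNAi library they were 1083, 535, 132 and 133, and against the untreated library 1236, 667, 251 and 202. The 1 gene 4-fold higher became 8 for both strands summed, 0 among protein-coding genes and 0 over the total of both strands. The 2 genes 4-fold lower became 1 among protein-coding genes, 4 with the most-read transcript, 1 against F1 and 6 against P0. Over both strands summed, 3 list medians changed sign: cuticle genes (1.17), ribosomal proteins (0.26) and histones (-0.15). With no minimum it was sperm genes (0.38), F-box and BATH genes (-0.050) and X-linked genes (-0.64). Against the lin-15b library the antisense medians that changed sign were kinetochore (0.36), heat shock (0.16), ERGO-1 targets (0.65), cuticle genes (0.64), ribosomal proteins (0.77), histones (-0.39) and long intergenic noncoding RNAs (0.19). The genes were atf-4 (1.01), lea-1 (0.25), mai-1 (0.81), lim-9 (0.86), E01G4.5 (0.064), suca-1 (-1.08), R02D5.1 (1.07), ucr-2.1 (-0.15), Y43F8B.9 (0.78), vang-1 (2.80), npr-11 (1.91), mir-8199 (1.46), bath-31 (0.65), exc-9 (0.41), fbxc-39 (2.03), lido-8 (1.08), Y81B9A.1 (-0.35), plr-1 (0.028), Y53F4B.45 (1.05), F40D4.16 (1.77), linc-14 (2.096), F31E9.11 (2.64), T04C12.30 (-0.33), linc-16 (3.08), linc-17 (1.34) and linc-24 (1.29). Against the untreated library, where medians and genes are taken over both strands summed, the medians were kinetochore (0.17), heat shock (0.35), cuticle genes (1.54) and ribosomal proteins (0.93). The genes were atf-4 (0.44), mai-1 (1.57), lim-9 (1.21), suca-1 (-0.0039), efl-3 (0.91), Y43F8B.9 (0.036), vang-1 (1.595), npr-11 (0.38), mir-8199 (0.067), bath-31 (0.22), exc-9 (0.088), fbxc-39 (1.104), lido-8 (0.13), Y81B9A.1 (-0.28), Y53F4B.45 (0.47), F40D4.16 (0.96), linc-14 (1.501), F31E9.11 (1.40), linc-16 (2.03), linc-17 (0.75) and linc-24 (0.57). Sense ratios that changed sign against the lin-15b library were the medians of dsRNA uptake (0.057), heat shock (-0.67), nuclear hormone receptors (0.19), F-box and BATH genes (0.49) and long intergenic noncoding RNAs (0.88), and the genes T04C12.30 (4.90), mab-21 (2.15) and K05B2.2 (0.087). The cause was not tested. Most of the genes past 2-fold are under 100 CPM.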

Other observations

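Nuclear hormone receptor genes, transcription factors that expanded in nematodes, had 15 measured members of 278 for antisense reads, 0 of them 2-fold apart, and a median log2 ratio of F3 over HT115 of -0.08. Homeobox genes had 10 measured members of 88 and a median of 0.02, with irx-1 the 1 gene at least 2-fold lower. Heat shock and stress genes had an antisense median of -0.12 over 12 members. Their sense median was 0.22 over 16 members, of which 2 were at least 2-fold higher in F3, against 3.01% of all genes measured for sense reads. The sense reads of microRNA genes made up 2.54% of the sense total in F3 and 2.34% on HT115.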
